A study of Mus musculus with 26 samples.

Results

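YAP (gene Yap1) and TAZ (gene Wwtr1), the TEAD factors Tead1, Tead2 and Tead4, and 5 genes described as targets of YAP and TAZ (Ctgf, Cyr61, Ankrd1, Amotl2 and Ajuba) were followed in mouse E14 cells, an embryonic stem cell (ESC) line, labelled as wild type (WT) or as a knockout (KO) of Klf4. These 10 genes were taken by symbol from the count files, which list 52535 genes. All 10 were among the 17273 genes with enough counts to be tested. Loops were assigned to a gene when an anchor lay within 2500 bases of its annotated span in mm10. This gave 273 of 143451 loops in the WT-labelled list and 932 of 489409 in the KO-labelled list.

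The series holds 26 samples and, by its title, concerns KLF4, early neural differentiation and chromatin folding. The RNA-seq groups were WT-labelled and Klf4-KO-labelled cultures, 2 libraries each, both labelled as neural progenitor cells (NPC) after 12 days of neural induction. The ESCs had been kept on gelatin in serum with LIF (10 ng/mL), the MEK inhibitor PD0325901 (1 μM) and the GSK3 inhibitor CHIR99021 (3 μM). Another 4 samples were RNA polymerase II HiChIP, an assay that captures pairs of distant DNA fragments at sites bound by the polymerase, deposited as 1 loop list per genotype label. The labels do not say how the knockout was made or whether it is 1 clone. The other 18 samples, ChIP-seq and inputs from ESCs, were not used here.

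The Hippo pathway is a kinase cascade in which MST kinases (Stk3, Stk4) activate LATS kinases (Lats1, Lats2), which phosphorylate YAP and TAZ and keep them out of the nucleus. In the nucleus YAP and TAZ bind no DNA themselves and act through TEAD factors, which recognise the sequence GGAATG. Much of the pathway is therefore controlled by the location and stability of YAP and TAZ proteins, which RNA counts do not measure. In the blastocyst, Tead4 and YAP are known for their part in setting up the trophectoderm.

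Because TEAD factors act through DNA, the 250 bases before the transcription start were read for each gene from the RefSeq promoter table (GRCm38.p6, the assembly of mm10) and searched on both strands for GGAATG. The table matched 7 of the 10 genes, with no entry for Tead1, Tead4 and Ctgf. GGAATG or its complement CATTCC was found in 6 of these 7 (85.7%), against 12.6% of 32851 promoters of the same length in the table. The first share counts genes (Wwtr1 has 2 promoters) and the second counts promoters, of 27025 genes. The 10 genes were chosen for their place in this pathway, so the contrast is no test of enrichment. Shown whole are 3 of the target promoters, written 5′ to 3′ along the gene's own strand and ending at the base before the start, with the TEAD motif in capitals. Those of Ankrd1 and Ajuba hold it more than once, and Cyr61 is a target the loop lists also bear on.
Cyr61, chr3:145649986-145650235, minus strand: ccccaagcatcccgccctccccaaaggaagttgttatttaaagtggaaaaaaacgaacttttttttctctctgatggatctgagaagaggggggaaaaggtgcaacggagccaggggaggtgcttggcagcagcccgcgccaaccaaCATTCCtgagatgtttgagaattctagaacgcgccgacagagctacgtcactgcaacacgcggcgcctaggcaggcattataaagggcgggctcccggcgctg
Ankrd1, chr19:36119845-36120094, minus strand: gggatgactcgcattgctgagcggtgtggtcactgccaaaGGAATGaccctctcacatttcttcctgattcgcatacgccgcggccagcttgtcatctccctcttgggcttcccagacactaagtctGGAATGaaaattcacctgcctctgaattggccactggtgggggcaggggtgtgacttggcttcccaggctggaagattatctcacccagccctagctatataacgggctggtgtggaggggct
Ajuba, chr14:54577662-54577911, minus strand: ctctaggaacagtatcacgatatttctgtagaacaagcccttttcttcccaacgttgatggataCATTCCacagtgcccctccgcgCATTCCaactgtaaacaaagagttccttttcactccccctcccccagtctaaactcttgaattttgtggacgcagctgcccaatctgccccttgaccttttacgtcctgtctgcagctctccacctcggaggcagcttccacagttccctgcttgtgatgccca

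For the other 3 genes with a match, 30 bases around it show the motif's setting.
Yap1, chr9:8004720-8004749, minus strand: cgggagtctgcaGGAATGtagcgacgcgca
Wwtr1, chr3:57576029-57576058, minus strand: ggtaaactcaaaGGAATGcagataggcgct
Amotl2, chr9:102717727-102717756, plus strand: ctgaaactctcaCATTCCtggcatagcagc

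Counted from the start, the motif lay at -103 to -98 in Cyr61, at -210 to -205 and -123 to -118 in Ankrd1, and at -186 to -181 and -164 to -159 in Ajuba. In Amotl2 it lay at -65 to -60, in Yap1 at -141 to -136 and in Wwtr1 at -136 to -131. The Amotl2 start used here lies inside the annotated span of the gene. The motif ran along the gene's strand in Ankrd1, Yap1 and Wwtr1 and against it in Cyr61, Ajuba and Amotl2. The Tead2 promoter held no match. None of the 7 held the AP-1 motif TGANTCA (6.75% of all promoters) or a CArG box, the motif of the serum response factor (1.47%). The KLF motif GGGNGTGG (15.9% of all promoters) was found in Wwtr1 only among the 7, and a TATA box (TATAAA, 12.4%) in Cyr61 only, at -25 to -20. No motif searched overlapped another in these promoters. A match is a string of letters and does not show that a factor was bound.

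**Figure D1:**
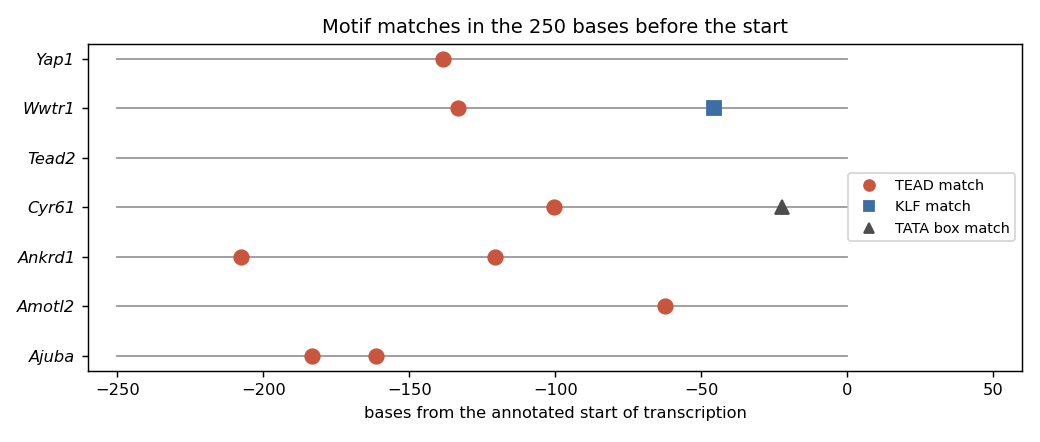
Positions of the searched motifs in the promoters found in RefSeq. The horizontal axis is the distance in bases before the transcription start, each row is 1 gene, and markers stand for matches of the TEAD motif, the KLF motif and the TATA box. The TEAD motif appears in 6 of the 7 genes, and Tead2 has no match.

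Klf4 was read first, as a check of the labels, and it went against them. No count of Klf4 was found in either WT-labelled library (0 and 0), while the KO-labelled libraries held 2571 and 2538, at least 752-fold higher against 3 counts per library (edgeR adjusted p = 1.25e-23). Groups are therefore called by their labels throughout, and no direction below can be read as an effect of losing Klf4. Library totals ran from 29835774 to 37703866 gene counts, and replicates of a group correlated at 0.988 and 0.990 (log scale, across genes). The libraries also differed from one another well beyond the 10 genes, with 73.1% of tested genes called at an adjusted p under 0.05. Of 8 pluripotency markers 7 were lower in the KO-labelled libraries, and they were high in both groups, summing to 7293 to 7320 CPM (counts scaled to a common library size with TMM factors) in WT-labelled and 4344 to 4408 in KO-labelled libraries. Neural progenitor markers summed to 77.1 to 78.3 and 124 to 135 CPM, with 7 of 7 tested higher in the KO-labelled libraries and Fabp7 and Hes5 at 0 in both WT-labelled libraries. Nes alone made up most of that sum (73.3 and 96.6 CPM on average), while Sox1 averaged 2.31 and 14.1, Sox3 1.75 and 9.0, and Pax6 0.0855 and 3.56 CPM in WT-labelled and KO-labelled libraries.

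RNA of the 5 target genes was higher in the KO-labelled libraries, from 2.79-fold for Ajuba to 11.3-fold for Cyr61, with a larger ratio on few counts for Ankrd1. RNA of Yap1, Wwtr1, Tead1, Tead2 and Tead4 moved by at most 1.51-fold, in both directions. The summed level of the 5 factor genes was 683 and 677 CPM in WT-labelled and 690 and 694 CPM in KO-labelled libraries. The summed level of the 5 targets was 265 and 271 against 911 and 919 CPM. Of the 10 genes 6 were called higher and 2 lower by edgeR's quasi-likelihood test, with 37.2% of all tested genes called higher and 35.8% lower. At 2-fold or more, 5 were higher, all of them targets, against 22.3% of all tested genes. The groups of libraries did not overlap for any of the 10, but this held for 86.3% of all tested genes.

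**Figure D2:**
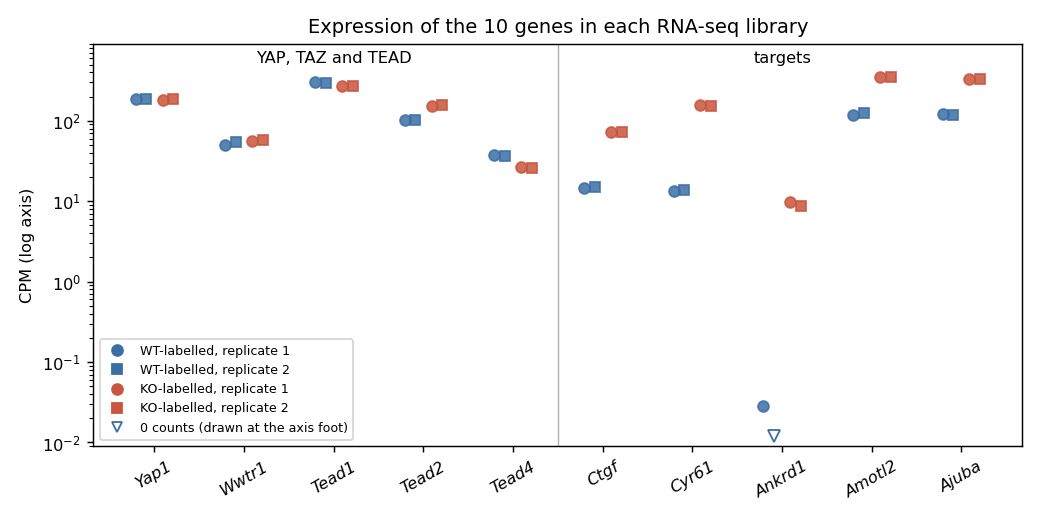
Levels of the 10 genes in the 4 RNA-seq libraries. Each point is 1 library, in CPM on a log scale, by genotype label. All 5 targets lie higher in both KO-labelled libraries, while Yap1 and Wwtr1 lie close together in all 4.

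Among the factors, Yap1 encodes YAP, the coactivator that LATS phosphorylates. It stood at 187.6 and 185.3 CPM in WT-labelled and 181.7 and 185.2 CPM in KO-labelled libraries. All 4 values lay close together, with a log2 fold change (KO-labelled over WT-labelled, as everywhere below) of -0.023 ± 0.034 (n = 2 libraries per group, edgeR adjusted p = 0.549). Here and below, the ± value is the absolute log2 fold change divided by the square root of edgeR's F statistic. It stands in for a standard error and can be too small where 1 group held few counts. Wwtr1 encodes TAZ, the paralogue of YAP. Its level was 50.5 and 55.1 against 56.4 and 58.1 CPM, higher in the KO-labelled pair by less than the test could call (log2 fold change 0.12 ± 0.061, edgeR adjusted p = 0.0856). It was called with upper-quartile factors (log2 fold change 0.20, edgeR adjusted p = 0.00472) and by library size alone (0.33, edgeR adjusted p = 3.58e-05). Yap1 was called by library size alone, in the opposite direction to the main value (0.19, edgeR adjusted p = 2.95e-05), and stood at 0.062 with upper-quartile factors. The median of all tested genes moved from 0.026 to 0.11 with upper-quartile factors and to 0.24 by library size alone.

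Tead1, Tead2 and Tead4 are DNA-binding partners of YAP and TAZ, and they did not move in 1 direction. Tead1 measured 305.6 and 296.7 CPM in WT-labelled against 271.9 and 269.3 CPM in KO-labelled libraries (log2 fold change -0.15 ± 0.030, edgeR adjusted p = 7.35e-05). This small decrease depended on the scaling, with +0.055 by library size alone (edgeR adjusted p = 0.105) and -0.069 with upper-quartile factors (edgeR adjusted p = 0.0508). Tead2, the family member known from early embryos and neural precursors, measured 101.6 and 103.5 against 153.5 and 155.2 CPM. It was 1.51-fold higher in the KO-labelled pair (log2 fold change 0.59 ± 0.040, edgeR adjusted p = 1.24e-12). Tead4, the family member required for trophectoderm, measured 37.5 and 36.4 against 26.4 and 25.9 CPM and was lower (log2 fold change -0.50 ± 0.078, edgeR adjusted p = 3.19e-06). Tead3, the remaining TEAD gene, rose from 3.42 and 3.47 to 21.2 and 22.4 CPM (log2 fold change 2.66 ± 0.14, edgeR adjusted p = 4.86e-15). Tead4 and Tead1 thus fell while Tead2 and Tead3 rose, Tead1 by an amount that the scaling could undo.

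Among the targets, Cyr61 (RefSeq name Ccn1) and Ctgf (Ccn2) encode secreted matricellular CCN proteins and are the most used readouts of YAP and TAZ. Cyr61 had 471 and 381 counts in WT-labelled and 5333 and 5463 counts in KO-labelled libraries, which is 13.4 and 13.8 against 155.6 and 152.4 CPM. Both KO-labelled libraries were far above both others, 11.3-fold on average (log2 fold change 3.50 ± 0.058, edgeR adjusted p = 5.92e-25). Ctgf measured 14.5 and 15.1 against 72.6 and 72.5 CPM and was 4.90-fold higher (log2 fold change 2.29 ± 0.071, edgeR adjusted p = 1.85e-19). The gene Gm15270 overlaps Ctgf, and reads of both cannot be told apart without a stated strand setting, but it had only 14 and 15 against 47 and 24 counts. Of the other CCN genes, Wisp1 rose from 0.301 to 10.9 CPM on average (log2 fold change 5.15 ± 0.27, edgeR adjusted p = 7.87e-15), Nov and Wisp3 were not called, and Wisp2 had too few counts to be tested.

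Ankrd1 encodes a cardiac ankyrin repeat protein. It had 1 and 0 counts in WT-labelled and 332 and 312 counts in KO-labelled libraries, or 9.69 and 8.70 CPM in the latter. The ratio of counts was 576, with an exact interval of 103 to 22796 that covers counting error only (edgeR adjusted p = 6.92e-15). Without the WT-labelled replicate that held no count the fitted log2 fold change was 8.15, and without the one that held 1 count it was 11.2, against 8.87 with both. Ankrd1 RNA was therefore at the detection floor in one pair of libraries and readily measured in the other.

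Amotl2 and Ajuba are targets that also act back on the pathway. Amotl2 encodes an angiomotin, a junctional scaffold that binds YAP, and measured 117.3 and 125.2 against 345.7 and 354.3 CPM, 2.89-fold higher (log2 fold change 1.53 ± 0.035, edgeR adjusted p = 5.72e-22). Ajuba encodes a LIM protein that binds LATS kinases, and measured 119.6 and 116.5 against 327.3 and 331.0 CPM, 2.79-fold higher (log2 fold change 1.48 ± 0.033, edgeR adjusted p = 3.47e-22). For both genes the 2 groups stood well apart and the libraries within each group close together. Changes of this size were not rare, since 17.2% of tested genes had a larger log2 fold change than Amotl2 and 17.8% than Ajuba. The shares were 10.8% for Ctgf and 5.45% for Cyr61.

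The rest of the pathway was read from 7 lists of 74 genes in all, of which 70 were tested, 50 called higher and 11 lower, beside 37.2% and 35.8% of all tested genes. The median log2 fold change over the 70 was 1.08, against 0.026 over all tested genes. Of 19 upstream kinases and scaffolds 12 rose, 4 fell and 3 were not called (median 0.33). Both LATS kinases rose: Lats1 from 28.5 to 60.0 CPM on average (log2 fold change 1.07 ± 0.067, edgeR adjusted p = 2.51e-13) and Lats2, itself a YAP target, from 3.02 to 38.9 CPM (3.70 ± 0.12, edgeR adjusted p = 7.87e-19). Fat4 and Dchs1, a cadherin pair that binds between neighbouring cells, went from 1 and 0 counts to 68 and 98 counts and from 9 and 2 to 350 and 317 counts. Mob1a, the LATS cofactor, fell from 149 to 54.3 CPM (-1.46 ± 0.045, edgeR adjusted p = 1.48e-19), and the MST kinase Stk4 from 136 to 86.5 CPM (-0.65 ± 0.043, edgeR adjusted p = 6.87e-13).

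Of 9 proteins that bind YAP or LATS, 6 rose, 2 fell and 1 was not called. Amot, the founding angiomotin, rose from 6.84 and 6.50 to 195 and 188 CPM (log2 fold change 4.84 ± 0.062, edgeR adjusted p = 4.06e-27), a larger change than that of Amotl2. Limd1, a LIM protein related to Ajuba, rose from 19.4 to 42.9 CPM (1.14 ± 0.079, edgeR adjusted p = 2.28e-12). The 14-3-3 genes Ywhaz and Ywhaq, whose proteins hold phosphorylated YAP in the cytoplasm, fell from 543 to 330 and from 507 to 360 CPM. All 5 genes listed as other TEAD partners were called higher: Tead3, itself a TEAD factor, and the Vgll cofactor genes. Vgll1 and Vgll2, cofactors that compete with YAP for TEAD, had 0 counts in the WT-labelled libraries and 21 and 18, and 23 and 47, in the KO-labelled ones, at least 5.75-fold and at least 10.2-fold higher against 3 counts per library.

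Of 22 tested further genes published as YAP or TAZ targets, 16 rose, 3 fell and 3 were not called (median 1.46). Thbs1, a secreted matrix glycoprotein, went from 4 and 3 counts to 4891 and 4913 counts, or from 0.111 to 140 CPM on average (log2 fold change 10.2 ± 0.13, edgeR adjusted p = 3.28e-27). With 4 and 3 counts in the WT-labelled libraries, this ± value understates the counting error. Ccdc80, another matrix protein gene, had 0 counts in the WT-labelled libraries and 45 and 51 in the others (at least 14.1-fold higher). The list did not move as one: Myof, a membrane repair protein, fell from 166 to 32.7 CPM (-2.34 ± 0.052, edgeR adjusted p = 2.36e-22) and the ectonucleotidase Nt5e from 7.08 to 1.35 CPM (-2.38 ± 0.26, edgeR adjusted p = 1.03e-08). Birc5, a mitotic regulator named after its values were seen, fell from 188 to 71.6 CPM, and Myc, Edn1 and Dock5 were not called.

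All 8 AP-1 genes, whose products bind DNA beside TEAD at many enhancers, rose (median log2 fold change 3.75). The largest rises were those of Fosl2, from 0.199 and 0.831 to 35.3 and 35.6 CPM (6.20 ± 0.24, edgeR adjusted p = 1.14e-12), and Fosb, from 0.541 and 0.0723 to 7.53 and 9.18 CPM (4.65 ± 0.38, edgeR adjusted p = 1.29e-09). Of the 4 tested trophectoderm genes that act under Tead4 and YAP in the blastocyst, 2 rose and 2 fell. Eomes rose from 5.05 to 32.3 CPM (2.68 ± 0.12, edgeR adjusted p = 2.45e-16) and Gata3 from 0.519 to 1.95 CPM (1.87 ± 0.46, edgeR adjusted p = 0.000896). Cdx2 fell from 17.7 and 15.8 to 2.28 and 1.06 CPM (-3.33 ± 0.22, edgeR adjusted p = 1.27e-10), the opposite direction, and Tfap2c from 97.3 to 86.7 CPM.

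**Figure D3:**
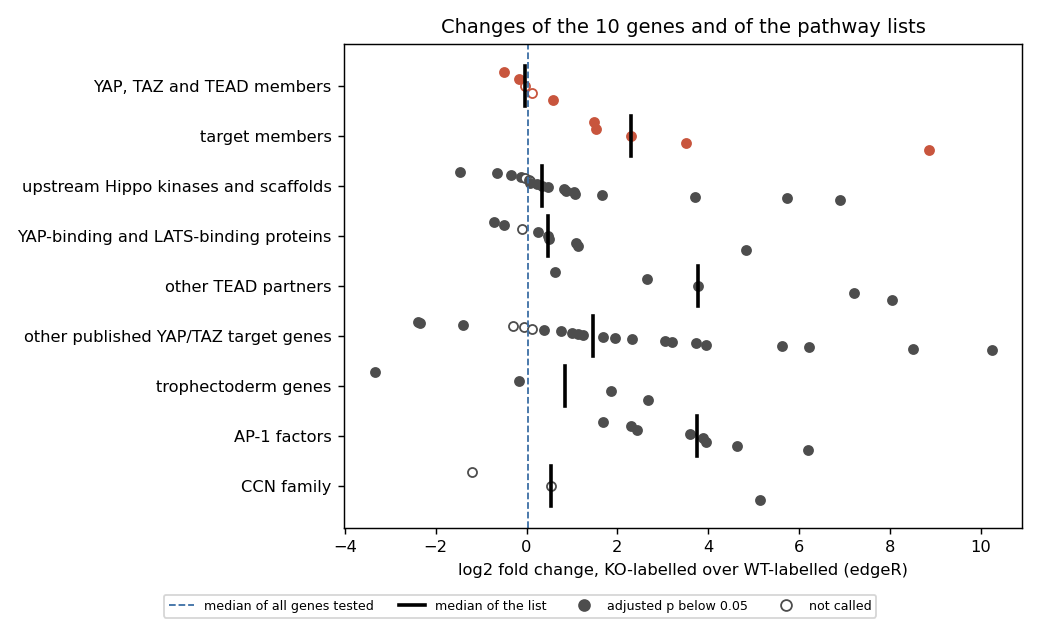
Fitted log2 fold changes of the 10 genes and of the 7 pathway lists. Each point is 1 gene, filled where edgeR's adjusted p is under 0.05, with black bars for list medians and a dashed line for the median of all tested genes. The factor genes lie around 0, the 5 targets between 1.48 and 8.87, and the AP-1 genes all to the right. Values of genes with almost no counts in 1 group (Ankrd1, Fat4, Vgll1, Vgll2, Ccdc80) depend on the prior count.

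Markers of other cell types also differed between the labels, beside 37.2% of all tested genes called higher and 35.8% called lower. Fibroblast and mesenchyme markers, where Ctgf, Cyr61 and Thbs1 are also expressed, summed to 14.4 to 14.8 CPM in WT-labelled and 303 to 312 CPM in KO-labelled libraries, with 7 of 7 tested genes higher. Col1a1 (103 CPM) and Col1a2 (146 CPM) made up most of the KO-labelled sum. Dcn and Lum had too few counts to be tested. Both had 0 counts in the WT-labelled libraries, with 12 and 2 (Dcn) and 1 and 5 (Lum) in the KO-labelled ones. Smooth and cardiac muscle markers, the tissue Ankrd1 is named for, summed to 11.2 to 11.7 and 193 to 203 CPM. Of the 8 genes 7 were higher and 1 lower, with Actc1 at 0 in the WT-labelled pair. Acta2 alone (150 CPM) made up most of the KO-labelled sum. Endoderm markers summed to 1.20 to 1.70 and 47.9 to 50.4 CPM, 6 of 6 tested higher. Afp and Ttr, not tested, had at most 1 count in any library of either group. Trophoblast markers, which include Cdx2 and Gata3, summed to 27.5 to 30.6 and 411 to 416 CPM, 6 of 7 tested higher and Cdx2 lower, with Elf5 at 0 in the WT-labelled pair. The keratins Krt8 (201 CPM) and Krt18 (192 CPM) made up most of the KO-labelled sum. The part of these markers in the levels of the 10 genes was not tested, and in bulk RNA a change in the number of cells of a type and a change in RNA per cell cannot be told apart.

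The HiChIP lists pool the replicates of each label, so values per list have no replicate check and no test was made. Intervals below are exact 95% intervals of counting error only. Klf4 was at odds with its labels in RNA-seq, and these lists hold no comparable check: 41 tags at Klf4 in the WT-labelled and 33 in the KO-labelled list, or 10.1 and 3.38 per 100000 tags of the list. That share was 2.98 times larger in the WT-labelled list (interval 1.84 to 4.87). The strongest Klf4 loop held 32 tags there and 5 in the KO-labelled list. This direction is opposite to that of Klf4 RNA, and a share of tags does not tell the genotype. Whether an RNA-seq group and the list with the same label come from the same genotype is therefore not known, and the values are set side by side without a link. The 10 genes together took 736 of 407150 tags in the WT-labelled list and 1685 of 977208 in the KO-labelled list, or 181 and 172 per 100000. The median distance between anchors was 205 and 274 kb at these genes, against 248 and 230 kb over all loops.

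Tag shares of single genes differed in both directions. Of 8 genes with at least 20 tags over both lists, 2 had at least a 2-fold larger share in the KO-labelled list (Tead1 and Cyr61) and 3 in the WT-labelled list (Yap1, Wwtr1 and Amotl2). Over all genes with that many tags, 30.7% were 2-fold larger in the KO-labelled list and 29.2% in the WT-labelled list, so a difference of this size was common. Of the loops at the genes followed here, 74 of 273 WT-labelled (27.1%) and 75 of 932 KO-labelled (8.05%) overlapped a loop of the other list at both anchors. A single tag was held by 58.2% of these WT-labelled and 67.5% of these KO-labelled loops. The shared part was not computed over all loops, so whether it is low for these genes in particular cannot be told. Anchors were called in each list separately, so a gene's tags also follow how much of it was covered by anchors.

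**Figure D4:**
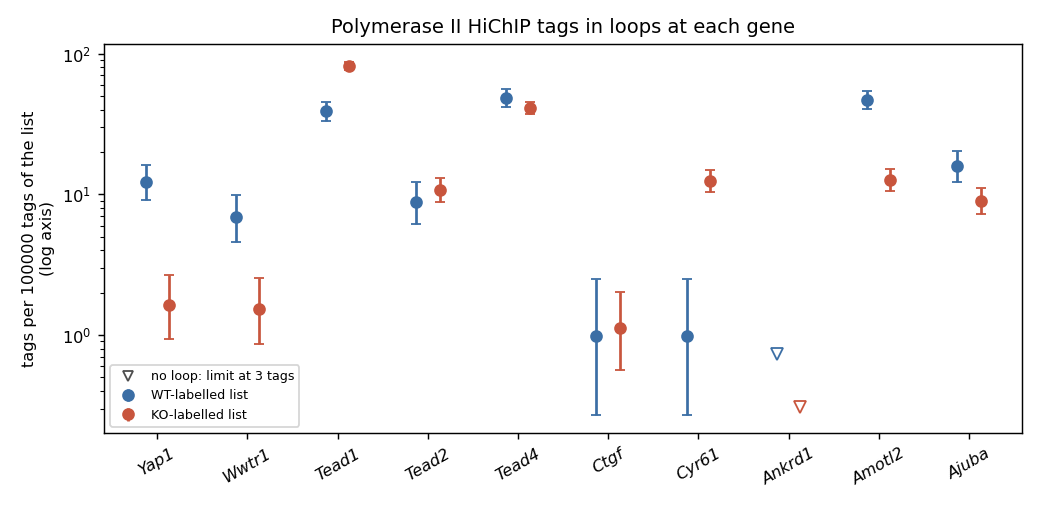
Share of loop tags at each of the 10 genes in the 2 HiChIP lists. The axis gives tags per 100000 tags of the list, on a log scale, with exact 95% intervals of counting error. Triangles mark genes without a loop at the limit that 3 tags give. Cyr61 and Tead1 lie higher in the KO-labelled list, Yap1, Wwtr1 and Amotl2 higher in the WT-labelled list, and Ankrd1 is at 0 in both.

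Cyr61 had nearly all of its tags in the KO-labelled list. The WT-labelled list held 4 loops of 1 tag each at Cyr61, a share of 0.982 per 100000 (interval 0.268 to 2.52). The KO-labelled list held 34 loops with 122 tags, a share of 12.5 (interval 10.4 to 14.9), for a ratio of 12.7 (interval 4.84 to 47.4). Its anchor over the gene was 16.6 kb long in the KO-labelled list and 2.9 kb in the WT-labelled list, and per kb of anchor the ratio was 2.22. With a window of 10000 bases around the gene, the WT-labelled list held 8 tags and the ratio was 6.35. The anchor of each list covers the promoter with the TEAD motif shown above. The strongest loop, with 23 tags, joined chr3:145642510-145659154 to chr3:145621638-145626544, 26.7 kb away by anchor centres and with no named gene within 2500 bases. A loop of 15 tags ended 34.3 kb away on the same side, and one of 8 tags ran 233 kb the other way to Ddah1. Of the 34 loops 11 had an FDR (the authors' false discovery rate) of at most 0.01 and at least 2 tags, here called strong, against none of the 4.

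Ctgf, the other CCN target, had little contact in either list, with 4 loops and 4 tags in the WT-labelled and 10 loops and 11 tags in the KO-labelled list. The ratio of shares was 1.15 with an interval of 0.340 to 4.93, too wide to show a difference at this depth, and it was 1.82 per kb of anchor. In each list 1 loop ran to Rps12, a ribosomal protein gene about 810 kb away, with 1 tag in the WT-labelled and 2 tags in the KO-labelled list. Ankrd1 had no loop and no anchor in either list. The limit set at 3 tags is 0.737 and 0.307 per 100000, and the exact intervals reach 0.906 and 0.377.

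**Figure D5:**
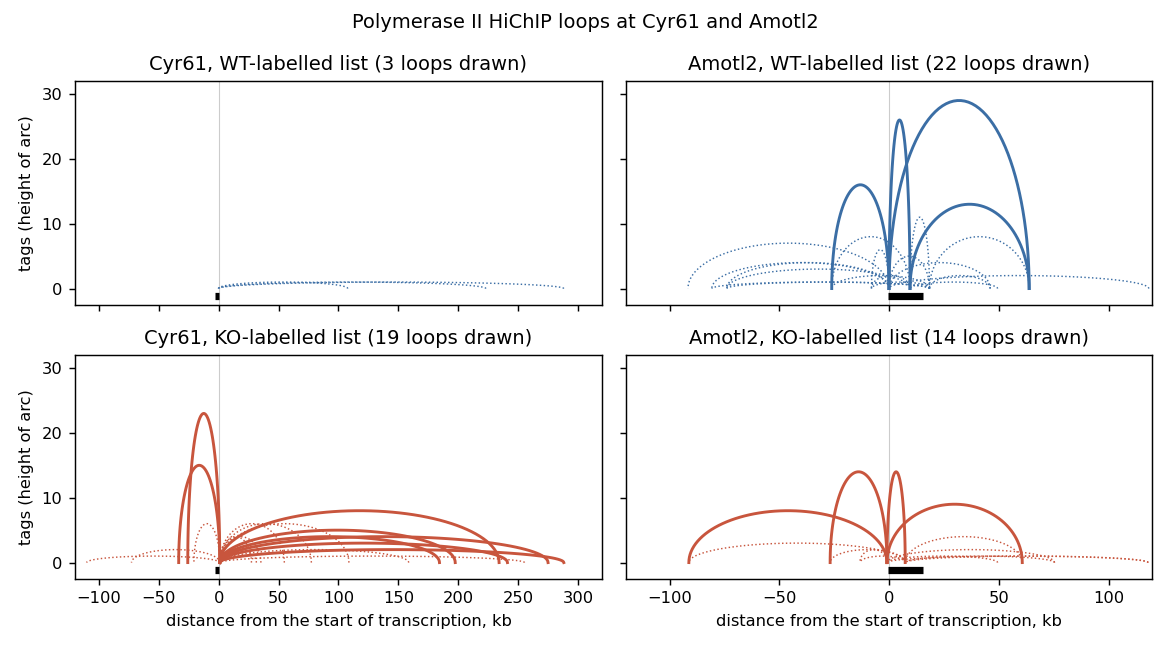
Loops at Cyr61 and Amotl2 in each HiChIP list. The horizontal axis is the distance from the gene's start in kb in the direction of the chromosome, arcs join anchor centres, the height of an arc is its tag count, solid arcs are strong loops and dotted arcs the others. The black bar is the gene, and loops that reach beyond the axis are left out. The 23-tag and 15-tag arcs at Cyr61 appear in the KO-labelled panel only, while Amotl2 shows arcs to the same neighbouring regions in both lists.

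Amotl2 was the target with the most tags in the WT-labelled list, 192 against 124. Its share was 47.2 against 12.7 per 100000, 3.72 times larger in the WT-labelled list (interval 2.95 to 4.70), with 18.4 and 11.7 kb of anchors. The KO-labelled share was 0.269 of the WT-labelled one, and 0.423 per kb of anchor. Some of the loops recurred: 16 of the 46 WT-labelled and 16 of the 60 KO-labelled loops were also found in the other list. The strongest WT-labelled loop, with 29 tags, ended 63.9 kb away, and the KO-labelled list held a loop of 9 tags to an overlapping region 61.6 kb away. A loop within the gene, 9.58 and 8.30 kb long, had 26 and 14 tags, and one to a region about 26 kb away had 16 and 14 tags. Strong loops numbered 11 and 12, and 3 in each list overlapped a strong loop of the other. Ajuba had 65 and 88 tags, a share 1.77 times larger in the WT-labelled list (interval 1.27 to 2.47), with 5.98 and 4.17 kb of anchors. Its KO-labelled share was 0.564 of the WT-labelled one, and 0.809 per kb of anchor. The strong loops at Ajuba held 8 and 22 tags. Their share of all strong-loop tags of each list was 1.68 times larger in the KO-labelled list. The ratios of 1.77 and 1.68 have different denominators and are not directly comparable. The strongest Ajuba loops were one of 10 tags ending 28.6 kb away in the WT-labelled list and one of 9 tags to Haus4 in the KO-labelled list, and both were present in the other list.

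Among the factors, Yap1 had 50 tags in the WT-labelled list and 16 in the KO-labelled list, a share 7.50 times larger in the former (interval 4.20 to 14.1), with 14.5 and 6.68 kb of anchors. The KO-labelled share was 0.133 of the WT-labelled one, 0.290 per kb of anchor, and 0.217 with loops at the ends of the gene alone (25 and 13 tags). Wwtr1 had 28 and 15 tags, 4.48 times larger (interval 2.31 to 9.02). Its KO-labelled share was 0.223 of the WT-labelled one, and 0.306 per kb of anchor. No loop of either gene exceeded 4 tags, and 1 loop in all was strong, from Wwtr1 to Eif2a in the WT-labelled list. The strongest Yap1 loop lay within the gene in the WT-labelled list and ran to Cfap300, 38.1 kb away, in the KO-labelled list.

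The TEAD genes held most of the tags at the 10 genes. Tead1, the longest of them, had 159 tags in 62 loops in the WT-labelled list and 800 tags in 514 loops in the KO-labelled list, with 31.1 and 74.6 kb of anchors. The ratio of shares was 2.1 (interval 1.77 to 2.50), but 0.875 per kb of anchor and 0.752 when loops were counted at the ends of the gene alone. With strong loops only (88 and 164 tags) it was 1.14, taken over the strong-loop tags of each list rather than all its tags. The strongest loop had 53 tags in the WT-labelled and 15 tags in the KO-labelled list, both from the first anchor of the gene to a region 12.1 and 17.4 kb further in. Tead4 had 198 and 404 tags, with a ratio of 0.850 (interval 0.715 to 1.01). Its strongest loop joined different parts of the gene in the 2 lists, with 38 and 16 tags, and loops of 11 tags to Tspan9 were found in the KO-labelled list. Tead2 had 36 and 105 tags, with a ratio of 1.22 (interval 0.825 to 1.83) that was 0.553 per kb of anchor. On the few tags of its strong loops (3 and 11), again over the strong-loop tags of each list, the ratio was 2.25. Its strongest KO-labelled loop, with 7 tags, ran 12.1 kb to Kash5 and Dkkl1. In the WT-labelled list no Tead2 loop exceeded 3 tags, with loops of that size to Prrg2 and Nosip and to Gys1, Ftl1 and Bax. For Tead2 and Tead4 the interval of the ratio included 1 with the main window, but the ratio depended on how loops were counted. At the ends of the gene alone it was 1.75 for Tead2 (25 and 105 tags) and 0.598 for Tead4 (122 and 175 tags). For Tead4 it was also 0.654 per kb of anchor, and 0.902 with strong loops only (93 and 137 tags).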

How the data were processed

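The authors deposited unnormalized counts of each gene symbol, in 1 file per RNA-seq library. The submitters' processing notes name HISAT2 2.1.0, featureCounts 2.0.3, DESeq2 1.18.1 and build mm10. No source used here gives the annotation or whether counting used strand. Rows that name no gene (20.4% to 22.5% of the column totals) were left out. Counts were filtered (filterByExpr), scaled by TMM and tested by the two-sided quasi-likelihood test of edgeR 4.0.16 (robust, R 4.3.3), with Benjamini-Hochberg adjustment over 17273 genes. By the series text each condition had 2 biological replicates. Replicates differed beyond sampling noise (chi-square per degree of freedom 3.54 and 4.31). The test was also run on simulated counts with few genes changed, a setting unlike these data. That run does not check the scaling, and no result above rests on it.

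Loop lists, 1 per label, were deposited by the authors with a tag count and a false discovery rate (q-value) per loop. HiC-Pro 2.11.1, Bowtie2 2.4.4 and MACS2 2.2.7.1 stand in the processing notes. The loop caller is not given in those notes. Shares carry Clopper-Pearson intervals.

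The 10 genes, the lists and the tests were chosen with earlier results of these data known. Named were the 10 genes, Klf4, in each list the 2 called genes with the largest rise and fall, Tead3, Lats1 and Lats2, and each gene's strongest loops. The markers Nes, Sox1, Sox3, Pax6, Krt8, Krt18, Col1a1, Col1a2 and Acta2, the other loops, and Birc5, Nov, Wisp3, Myc, Edn1 and Dock5 were named after their values were seen. A floor of 3 counts was 0.0837 to 0.108 CPM. Gene spans and promoters came from RefSeq (GRCm38.p6). Alternatives were other scalings, no filter, DESeq2 1.42.0, a replicate block, leaving out each library, a 2-fold minimum, and stricter or differently placed loops.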

Additional observations from a re-analysis of the deposited data

How the results depend on the processing

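The 5 targets and Tead2 were called higher and Tead4 lower under every scaling, filter, tool and left-out library run. Members called lower fell from 2 to 1 with upper-quartile factors and to 1 by library size alone (both without Tead1), and to 0 at a 2-fold minimum. Those called higher went from 6 to 7 with upper-quartile factors (Wwtr1 gained), to 8 by library size alone (Wwtr1 and Yap1 gained) and to 5 at a 2-fold minimum (Tead2 lost). Yap1 turned from -0.023 to 0.062 and 0.19 (log2) and Tead1 from -0.15 to 0.055 by library size alone. The median of all tested genes moved the same way, from 0.026 to 0.11 with upper-quartile factors and 0.24 by library size. Which scaling is right was not tested. Of all called genes 50.9% were higher with TMM, 55.4% with upper-quartile factors and 62.0% by library size. At a 2-fold minimum 5 pathway genes were lower, and 3856 and 1962 of all genes were higher and lower. Leaving out 1 library gave 6 to 6 members higher, 2 to 2 lower, 46 to 49 pathway genes higher, 10 to 11 lower, and 5781 to 6235 and 5878 to 6038 of all genes. DESeq2 called 6 members higher and 2 lower. With the replicate block 6 members were higher and 2 lower, with 6298 and 6112 of all genes; the shared numbers did not pair the samples (correlation of deviations 0.015).

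Strong loops numbered 39 and 126 at the 10 genes, and loops at the ends of a gene alone 158 and 332, in the WT-labelled and KO-labelled list, fewer by construction. The Tead1 ratio was 0.752 at the ends alone. Requiring 50% of each anchor left 28 shared loops in each list. Ctgf had 15 tags and Ankrd1 0 tags over both lists, too few to compare.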
